A study of Rattus norvegicus with 4 samples.

Results

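The 9 genes described here encode subunits of the voltage-gated sodium channel, measured in rat dorsal root ganglia (DRG): the alpha subunit genes Scn1a, Scn7a, Scn8a, Scn9a, Scn10a and Scn11a and the beta subunit genes Scn2b, Scn3b and Scn4b. They were the protein-coding rows of the deposited count table that carried one of these symbols, 9 of 33506 genes, with 6 alpha and 3 beta subunits. All 9 were among the 14719 protein-coding genes that passed the filter on low counts. The libraries came from wild-type neonatal Wistar rats injected intraperitoneally at P14 and P16 with vehicle (PBS) or with cisplatin at 0.3 mg/kg, a platinum drug used against childhood and adult tumours, with 2 libraries in each group. The labels number the libraries of each group as separate rats and place collection 16 days after treatment, whereas the methods place it at P23, and each extraction pooled several lumbar ganglia from males or females not told apart here. The samples were whole ganglia, so that fewer cells of a type and less RNA per cell cannot be told apart in any value given here.

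Voltage-gated sodium channels open on depolarisation and carry the inward current of the action potential. The long alpha subunit forms the pore, and the short single-pass beta subunits alter its gating and its delivery to the membrane. In sensory neurons, Scn9a (Nav1.7), Scn10a (Nav1.8) and Scn11a (Nav1.9) are best known from nociceptors, whereas Scn1a (Nav1.1) and Scn8a (Nav1.6) are prominent in larger myelinated neurons and Nav1.6 is the main channel of the node of Ranvier.

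None of the 9 subunits was called changed by cisplatin, either lower or higher, in the edgeR quasi-likelihood test across all genes tested, where a call needed a fold change of at least 1.5 and an adjusted p under 0.05. The same test called 1 gene lower, 0.00679% of those tested, and 0 genes higher, a share of 0%. DESeq2 and limma on the FPKM values also called 0 of the 9. Of all genes tested, DESeq2 called 0.611% lower and 0.34% higher, and limma called at most 0.0136% in each direction. At an unadjusted p under 0.05 with the same fold change, 1 of the 9 was lower, Scn7a, beside 5.18% of all genes tested. In 2 of the 9, Scn7a and Scn8a, both cisplatin libraries lay below both vehicle libraries, as they did in 21.2% of all genes tested. None of the 9 had both cisplatin libraries above both vehicle libraries, which held for 20.6% of all genes. With 2 libraries against 2, an exact permutation test of a single value cannot give a two-sided p below 0.333.

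Library totals were between 21384801 and 25618417 counts. The tissue was neuronal and glial by its markers, with all 12 pan-neuronal and all 8 Schwann cell markers counted in every library. Summed Schwann cell markers stood at 60854 and 156275 CPM (counts scaled to library size) in vehicle replicates 1 and 2 and at 47787 and 137053 CPM in cisplatin replicates 1 and 2, so that replicate 2 was the higher in both groups. Vehicle replicate 1 stood apart in markers of other tissues. All 5 skeletal muscle markers in the table were highest there, with sums of 629 and 18.8 CPM in the vehicle libraries and 63.0 and 19.8 CPM in the cisplatin libraries. Of 6 spinal cord markers, 5 were highest in vehicle replicate 1 (sums of 368, 195, 317 and 214 CPM in the same order). The exception was Slc17a7, a glutamate transporter gene that DRG neurons also express, and without it, a choice made after the values were seen, the sums of the other 5 were 139, 27.8, 15.4 and 32.8 CPM. Olig2, which marks oligodendrocyte lineage cells, had 56 counts in vehicle replicate 1 and 0 in the other 3 libraries. Mobp, a central myelin gene singled out after its values were seen, had 989 counts in vehicle replicate 1 and 43, 19 and 47 in the others. Sums for satellite glia (4107 and 3427 against 4452 and 3901 CPM), fibroblasts and meninges (5661 and 7499 against 2758 and 5403 CPM), endothelium (76.7 and 92.0 against 61.5 and 86.1 CPM) and macrophages (44.7 to 52.0 CPM over all libraries) overlapped between the groups except for the fibroblast list, whose sums were lower in both cisplatin libraries. In that list, 4 of the 7 genes had negative and 3 had positive log2 fold changes. Col1a1, singled out after its values were seen, made up most of each sum (4045 and 5312 against 1847 and 3766 CPM). No marker gene was called. Cldn5, an endothelial tight junction gene, was at 0 in every library, while Cdh5 of the same list had 654 to 849 counts. Whether that 0 reflects absent RNA or the counting of this gene was not tested.

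**Figure D1:**
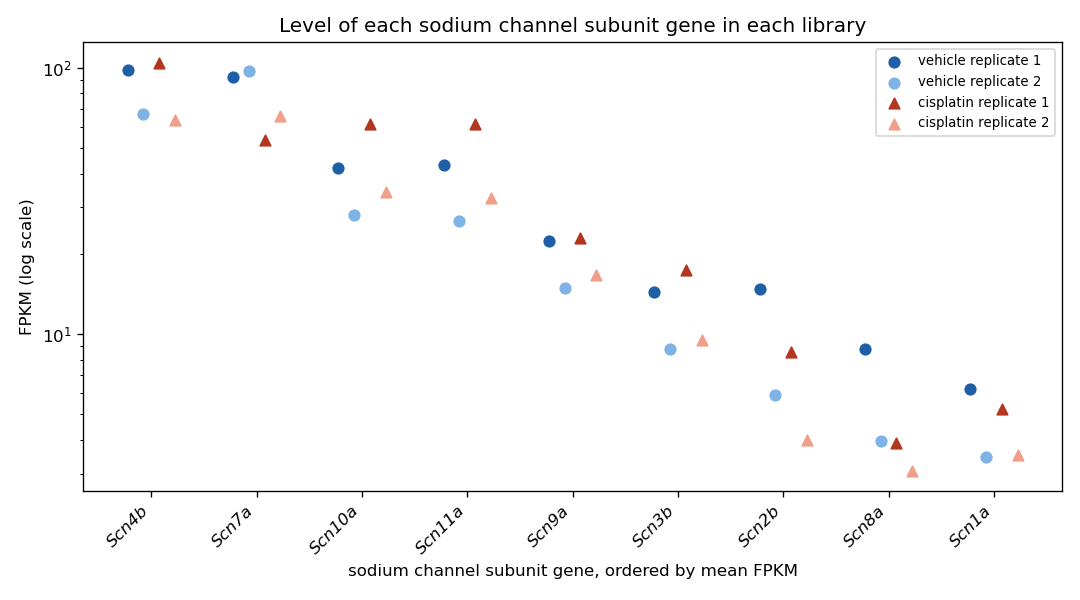
Level of each subunit in each library in FPKM (fragments scaled for gene length and library size) on a log axis, with the 9 subunit genes ordered by mean, circles for vehicle and triangles for cisplatin libraries. Scn4b and Scn7a have the highest means and Scn8a and Scn1a the lowest. Both cisplatin points lie below both vehicle points for Scn7a and Scn8a only.

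Among the nociceptor alpha subunits, Scn10a encodes Nav1.8, the tetrodotoxin-resistant channel that carries most of the upstroke of the nociceptor action potential. It had 6973 and 3703 counts in the vehicle libraries and 10345 and 5344 in the cisplatin libraries (ENSRNOG00000032473, chr8:128298594-128416650, minus strand, Rnor_6.0). Scaled with TMM, these were 279 and 188 CPM against 407 and 227 CPM. The groups overlapped, since cisplatin replicate 2 lay below vehicle replicate 1. The log2 fold change was 0.44 (SE 0.37, edgeR adjusted p = 0.707), a fold of 1.36. Without cisplatin replicate 1 it was -0.03, and without vehicle replicate 1 it was 0.76.

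Scn11a encodes Nav1.9, a persistent low-threshold current of small sensory neurons. It had 6493 and 3167 counts in the vehicle libraries and 9381 and 4590 counts in the cisplatin libraries (ENSRNOG00000032884, chr8:128450801-128521109, minus strand). The order of the 4 libraries was the same as for Scn10a, and the groups overlapped in the same way. Its log2 fold change was 0.43 (SE 0.40, edgeR adjusted p = 0.737), and it was -0.10 without cisplatin replicate 1 and 0.81 without vehicle replicate 1.

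Scn10a and Scn11a had near-equal levels per length in each library. The ratio of Scn10a to Scn11a FPKM was 0.970 and 1.06 in the vehicle libraries and 0.996 and 1.05 in the cisplatin libraries, while Scn11a alone ranged from 26.5 to 61.5 FPKM. Across all 36 pairs of members, this pair had the most similar profile over the 4 libraries, with a root-mean-square difference of centred log2 CPM of 0.052. Scn11a was the 31st closest of 14718 other genes to Scn10a. The 2 genes are neighbours on chromosome 8, separated by 34.2 kb with no other coding gene between them.

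The 250 bases before the annotated start of these 2 genes are printed because their counts moved together between libraries, and those of Scn8a and Scn2b because these had the lowest log2 fold changes of the 9. The sequences are from RefSeq (GRCr8), which held an entry for 7 of the 9 members, not for Scn1a or Scn3b. Capitals mark letters of a searched motif on either strand, namely the TATA box TATAAA, the GC box GGGCGG, the CCAAT box, the E box CANNTG and the CRE TGACGTCA. The windows are chr8:128340299-128340548 (minus strand) for Scn10a, chr8:128444719-128444968 (minus strand) for Scn11a, chr7:133860977-133861226 (plus strand) for Scn8a and chr8:54322133-54322382 (plus strand) for Scn2b.
Scn10a: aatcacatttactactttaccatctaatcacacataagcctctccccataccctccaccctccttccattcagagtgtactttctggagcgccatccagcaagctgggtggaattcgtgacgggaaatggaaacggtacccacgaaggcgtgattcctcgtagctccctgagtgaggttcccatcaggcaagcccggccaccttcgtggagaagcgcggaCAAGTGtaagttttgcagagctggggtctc
Scn11a: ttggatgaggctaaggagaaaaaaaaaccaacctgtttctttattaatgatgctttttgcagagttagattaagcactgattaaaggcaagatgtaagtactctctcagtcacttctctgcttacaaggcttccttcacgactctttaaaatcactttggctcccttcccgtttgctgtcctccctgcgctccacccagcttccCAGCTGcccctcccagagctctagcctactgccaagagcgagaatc
Scn8a: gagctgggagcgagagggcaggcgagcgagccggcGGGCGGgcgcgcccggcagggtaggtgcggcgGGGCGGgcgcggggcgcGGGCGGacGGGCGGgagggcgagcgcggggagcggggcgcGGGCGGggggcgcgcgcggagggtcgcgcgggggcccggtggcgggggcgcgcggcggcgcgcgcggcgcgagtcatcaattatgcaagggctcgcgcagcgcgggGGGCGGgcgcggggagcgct
Scn2b: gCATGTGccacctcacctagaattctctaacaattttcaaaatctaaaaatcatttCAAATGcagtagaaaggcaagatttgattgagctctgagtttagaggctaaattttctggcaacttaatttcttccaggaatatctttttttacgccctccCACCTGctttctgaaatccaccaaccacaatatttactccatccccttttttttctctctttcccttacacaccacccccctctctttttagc
In these windows Scn10a and Scn11a each held 1 E box and no GC box. Scn8a held 6 GC boxes and no E box, with 53 CpG dinucleotides and 86% G and C. Scn2b held 3 E boxes and no GC box, with 1 CpG and 38.8% G and C. Over all 33469 promoter windows of the same length, 65.54% held an E box and 30.47% a GC box, and the median was 5 CpG and 51.2% G and C. None of the 4 windows held the other motifs searched, which were in 12.93% (TATA box), 34.02% (CCAAT box) and 1.587% (CRE) of all windows. A match of letters is a description of the sequence and not of a bound factor.

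Scn9a encodes Nav1.7, which amplifies small depolarisations in nociceptor endings and whose loss in humans abolishes pain. It had 5303 and 2811 counts in the vehicle libraries and 5530 and 3716 counts in the cisplatin libraries (ENSRNOG00000006639, chr3:52583951-52664209, minus strand). Both replicate 1 libraries were the higher, and the groups overlapped. The log2 fold change was 0.08 (SE 0.29, edgeR adjusted p = 0.936), and it went from -0.17 to 0.40 as single libraries were left out.

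Of the alpha subunits of larger neurons, Scn8a encodes Nav1.6, the channel of the node of Ranvier and the axon initial segment. It had 1543 and 552 counts in the vehicle libraries and 695 and 505 counts in the cisplatin libraries (ENSRNOG00000005309, chr7:142575672-142684114, plus strand). In CPM these were 61.6 and 28.0 against 27.4 and 21.5. Both cisplatin libraries lay below both vehicle libraries, but vehicle replicate 2 and cisplatin replicate 1 nearly coincided, and vehicle replicate 1 lay far above the other 3. The log2 fold change was -0.88 (SE 0.40, unadjusted p = 0.0731, edgeR adjusted p = 0.544). Without vehicle replicate 1, the library with the high spinal cord and muscle markers, it was -0.19. The part of those markers in the Scn8a value was not tested beyond leaving that library out.

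Scn1a encodes Nav1.1, found in myelinated mechanosensory neurons. It had 1892 and 838 counts in the vehicle libraries and 1613 and 1010 counts in the cisplatin libraries (ENSRNOG00000053122, chr3:52381975-52510507, minus strand). The groups overlapped, with a log2 fold change of -0.15 (SE 0.34, edgeR adjusted p = 0.902) that ranged from -0.50 to 0.33 as single libraries were left out. Per length, Scn8a exceeded Scn1a in both vehicle libraries, with FPKM ratios of 1.42 and 1.14, and was below it in both cisplatin libraries, with ratios of 0.748 and 0.868. This ratio was chosen after the values were seen.

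Scn7a encodes Nax, an atypical member that senses extracellular sodium and is known from both sensory neurons and Schwann cells. It had the steadiest values of the 9 within a group: 12001 and 10056 counts in the vehicle libraries and 7104 and 8117 counts in the cisplatin libraries (ENSRNOG00000029342, chr3:52777214-52849907, minus strand). The means were 495 ± 22.2 CPM in vehicle and 312 ± 46.2 CPM in cisplatin (SD, n = 2). All cisplatin values lay below all vehicle values. The log2 fold change was -0.66 (SE 0.24, a fold of 0.631, unadjusted p = 0.0343, edgeR adjusted p = 0.522). It was negative in all 16 alternative settings, as was that of Scn8a, but these settings reuse the same 4 libraries. Without any single library the Scn7a value lay between -0.82 and -0.51, and without vehicle replicate 1 it was -0.70. All 8 Schwann cell markers also had negative log2 fold changes, with a median of -0.36, and the groups overlapped for each of the 8. Like their sums, Scn7a in CPM was higher in replicate 2 than in replicate 1 of both groups, and the part of Schwann cell RNA in its value was not tested.

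**Figure D2:**
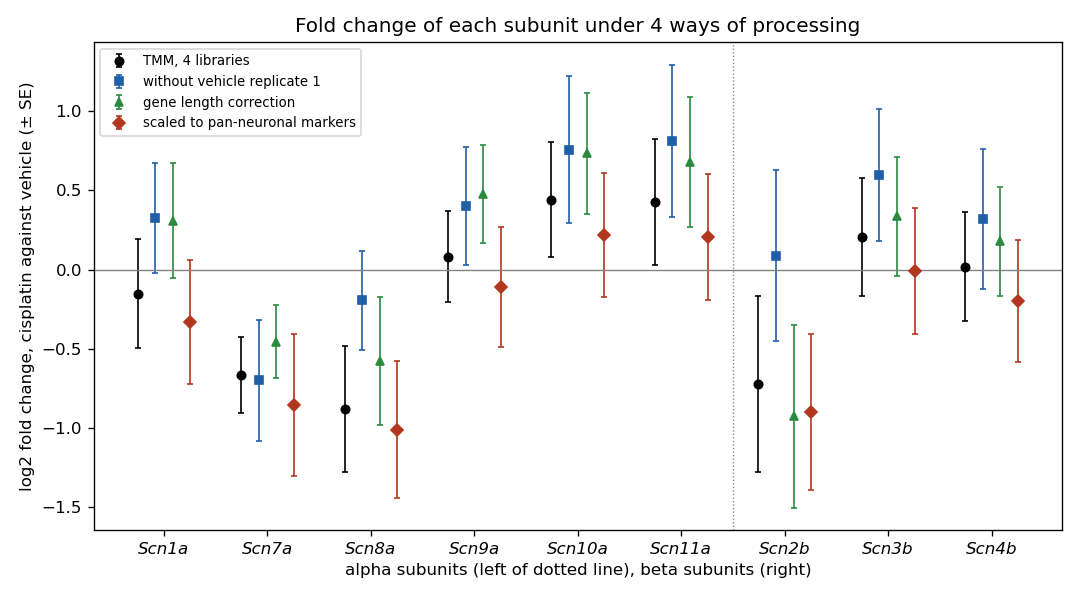
Log2 fold change of cisplatin over vehicle (points, with bars for the standard error) for the 9 subunits under 4 ways of processing: the edgeR fit on all libraries, without vehicle replicate 1, with a gene length correction, and scaled to pan-neuronal markers. Scn7a and Scn8a are negative and Scn10a and Scn11a positive under all 4, while Scn2b is at -0.72 with all libraries and 0.09 without vehicle replicate 1. In the fit without cisplatin replicate 1, which is not drawn, Scn10a was at -0.03 and Scn11a at -0.10.

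Of the beta subunits, Scn4b, whose cytoplasmic tail is linked to resurgent current, had 10734 and 5793 counts in the vehicle libraries and 11569 and 6518 counts in the cisplatin libraries (ENSRNOG00000026679, chr8:49441106-49456279, plus strand). The log2 fold change was 0.02 (SE 0.34, edgeR adjusted p = 0.990). It ranged from -0.38 without cisplatin replicate 1 to 0.33 as single libraries were left out, and it was -0.20 when scaled to the pan-neuronal markers and -0.04 when scaled by library size alone.

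Scn2b, the beta2 subunit that is disulfide-linked to the alpha subunit and known to raise its surface expression, was the least counted member. It had 392 and 124 counts in the vehicle libraries and 231 and 100 counts in the cisplatin libraries (ENSRNOG00000016221, chr8:49418965-49427689, plus strand). The log2 fold change was -0.72 (SE 0.56, edgeR adjusted p = 0.689), and the groups overlapped. Without vehicle replicate 1 it was 0.09.

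Scn3b, the beta3 subunit, had 1425 and 696 counts in the vehicle libraries and 1751 and 886 counts in the cisplatin libraries (ENSRNOG00000057221, chr8:44136496-44159010, plus strand). Its groups overlapped too, with a log2 fold change of 0.21 (SE 0.37, edgeR adjusted p = 0.876). It was -0.29 without cisplatin replicate 1, -0.09 without vehicle replicate 2 and 0.60 without vehicle replicate 1. Scn2b and Scn4b are neighbours, 13.4 kb apart with no coding gene between them, yet the ratio of Scn4b to Scn2b FPKM went from 6.65 to 15.8 over the libraries.

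Levels of different subunits were compared per length. In the vehicle libraries the means were 94.3 ± 3.53 FPKM for Scn7a and 82.6 ± 22.3 FPKM for Scn4b, which did not differ beyond their spread. Scn10a (35.0 ± 9.84 FPKM) and Scn11a (34.9 ± 11.8 FPKM) followed, also within each other's spread, then Scn9a (18.6 ± 5.25 FPKM). Scn3b (11.6 ± 3.91 FPKM) and Scn2b (10.3 ± 6.30 FPKM) overlapped, as did Scn8a (6.40 ± 3.43 FPKM) and Scn1a (4.85 ± 1.95 FPKM). In the cisplatin libraries the order was the same apart from Scn4b (83.9 ± 28.8 FPKM) passing Scn7a (59.8 ± 8.92 FPKM), and Scn1a (4.38 ± 1.19 FPKM) passing Scn8a (3.49 ± 0.591 FPKM), both within the spread of those libraries. These spreads are between libraries and do not compare 2 genes within a library. Within each library, Scn8a was above Scn1a in vehicle and below it in cisplatin, as the ratios above show. Scn7a made up 42.8% and 55.7% of the summed alpha FPKM in the vehicle libraries and 25.7% and 42.3% in the cisplatin libraries. Scn10a made up 19.6% and 16.1% against 29.4% and 21.9%. The shares of Scn11a and Scn9a were also higher in both cisplatin libraries than in both vehicle libraries. That of Scn8a was lower and that of Scn1a overlapped. Such shares are parts of one sum, so a lower Scn7a share raises the others. In FPKM itself, Scn9a, Scn10a and Scn11a each overlapped between the groups.

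Alpha and beta subunits were then set side by side, because the genes differ in length, at 5115 to 11887 bases for the alpha and 1037 to 4272 bases for the beta gene models, against a median of 2371 bases over all genes tested. The median log2 fold change was -0.03 for the 6 alpha and 0.02 for the 3 beta subunits, and -0.01 over all genes tested. The difference of the medians, beta minus alpha, was 0.05, a description with no test. Across genes tested, which are not independent replicates, log2 fold change and length had a Spearman rho of -0.357, and the trend gave 0.21 at the length of the shortest member and -0.44 at that of the longest. With this trend removed, the medians were 0.39 for the alpha and 0.18 for the beta subunits and their difference turned to -0.21, Scn1a changed sign to 0.31, Scn10a was at 0.73, Scn11a at 0.68, Scn7a at -0.46, Scn8a at -0.58 and Scn2b at -0.93. None of the 9 was called with the trend removed either, beside 0.00679% of all genes tested called lower and 0% higher. Summed alpha FPKM was 214 and 174 in the vehicle and 208 and 156 in the cisplatin libraries, and summed beta FPKM was 127 and 81.5 against 130 and 77.0. The beta to alpha ratio of these sums, 0.595 and 0.469 against 0.625 and 0.494, was higher in replicate 1 than in replicate 2 of both groups.

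Replicate 1 exceeded replicate 2 in both groups for 8 of the 9 subunits in TMM-scaled CPM, by 1.46- to 2.49-fold in vehicle and by 1.27- to 2.14-fold in cisplatin. Only Scn7a went the other way, at 0.938 and 0.811. Pan-neuronal markers followed the same pattern, with a mean log2 CPM of 7.77 and 7.24 in the vehicle libraries and 7.96 and 7.46 in the cisplatin libraries, and 9 of those 12 markers had a positive log2 fold change. Nociceptor markers (9 of 10 positive, median log2 fold change 0.35) and large-diameter neuron markers (6 of 7 positive, median 0.12) also had higher sums in replicate 1 of both groups, with no gene called in either list. Replicate numbers follow the sample titles alone, where they name different rats.

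**Figure D3:**
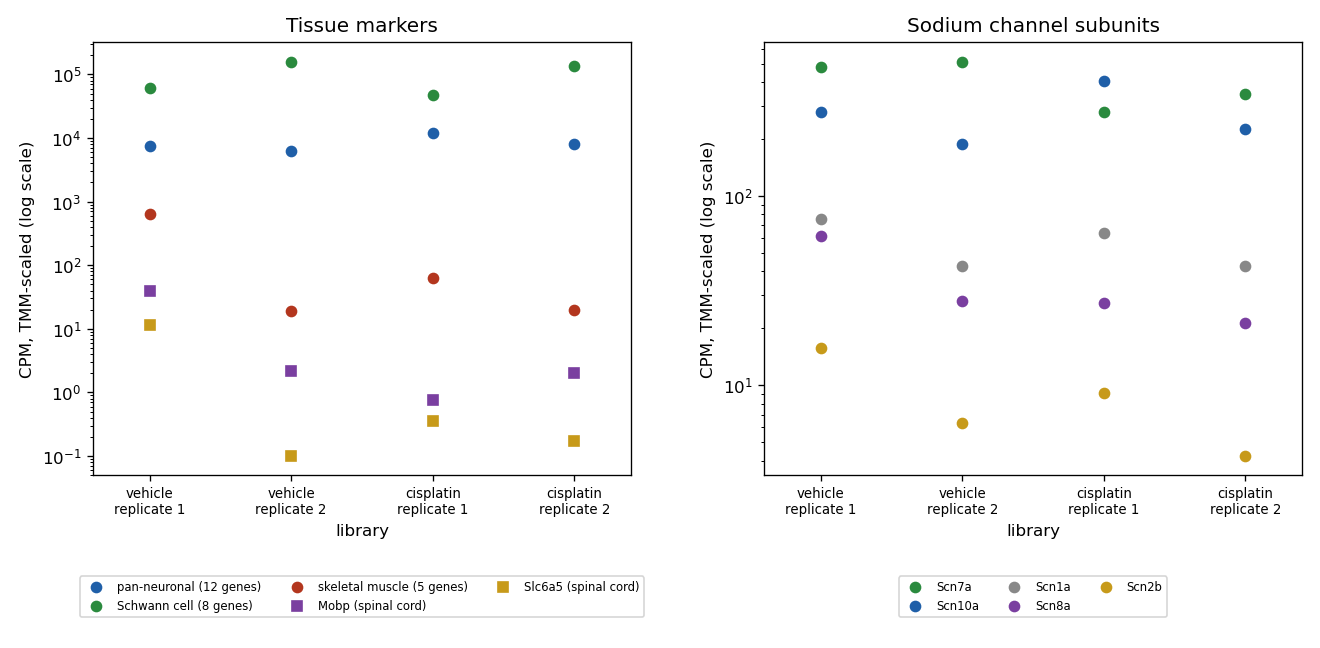
Left, summed TMM-scaled CPM of marker lists and of single spinal cord markers in each library on a log axis. Right, CPM of 5 sodium channel subunits in the same libraries, showing that replicate 1 exceeds replicate 2 in both groups for Scn10a, Scn1a, Scn8a and Scn2b but not for Scn7a, and that vehicle replicate 1 is the highest for muscle and spinal cord markers.

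Relative to the pan-neuronal mean in each library, 6 of the 9 subunits had both cisplatin values below both vehicle values, beside 19.8% of all genes tested, and 1 had both above, beside 6.31%. The 1 above was Scn10a, at 0.35 and 0.31 log2 units over the neuronal mean in vehicle and 0.71 and 0.36 in cisplatin. Scn11a (0.25 and 0.09 against 0.57 and 0.15) and Scn3b (-1.94 and -2.10 against -1.85 and -2.23) overlapped. Scn9a lay closest to the neuronal mean, at -0.04 and -0.08 in vehicle and -0.19 and -0.16 in cisplatin. Its values did not overlap, but its difference of -0.11 was smaller in size than the median of -0.21 over all genes tested. Scn8a was at -1.82 and -2.43 against -3.18 and -3.03, and Scn7a at 1.13 and 1.75 against 0.17 and 0.97. The median difference over the 9 members was -0.20, beside -0.21 over all genes tested. For 8 of the 9 subunits replicate 1 exceeded replicate 2 in both groups, as for the pan-neuronal mean. Subtracting that mean narrowed their spread within a group, so the share over all genes is not a like baseline. In the fit with the length trend removed, Scn1a, counted below here, was at a log2 fold change of 0.31. The part of gene length in these counts was not tested. In the fit scaled to the pan-neuronal markers no member was called, with Scn8a at a log2 fold change of -1.01 and an edgeR adjusted p of 0.999. That fit called 0.00679% of all genes tested lower and 0.00679% higher.

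**Figure D4:**
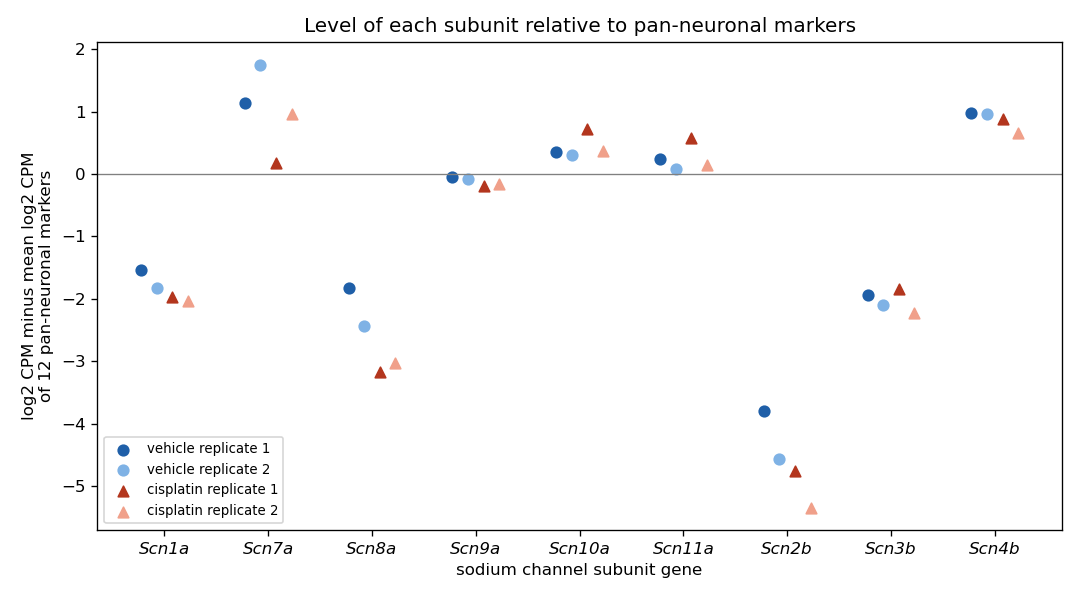
Log2 CPM of each subunit minus the mean log2 CPM of 12 pan-neuronal markers, one point per library, with vehicle and cisplatin in separate colours. Both cisplatin points lie below both vehicle points for Scn1a, Scn7a, Scn8a, Scn9a, Scn2b and Scn4b, and above them for Scn10a.

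Of the other sodium channel alpha subunit genes, Scn2a and Scn3a, best known from central neurons, and Scn4a, best known from skeletal muscle, were rare in the ganglia. Scn2a had 212 and 85 counts in the vehicle libraries and 188 and 126 in the cisplatin libraries (log2 fold change -0.01). Scn3a had 128 and 59 counts against 96 and 84 (log2 fold change -0.15), and Scn4a had 132 and 67 counts against 139 and 71 (log2 fold change -0.03). Each of the 3 stayed under 1 FPKM in every library, and the groups overlapped for each. None was called by edgeR, and 0 of them had an unadjusted p under 0.05. With a fold change of at least 1.5 as well, such a p was found in 5.18% of all genes tested for lower and 2.77% for higher values.

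None of 14 genes for proteins known to bind or traffic the channel was called by edgeR, and 0 of them had an unadjusted p under 0.05. Of all genes tested, 5.18% were lower and 2.77% higher at such a p with a fold change of at least 1.5. The median log2 fold change of the list was -0.18, beside -0.01 over all genes tested. Both cisplatin libraries lay below both vehicle libraries in 6 of the 14 and above them in 1, beside 21.2% and 20.6% of all genes tested. Nfasc, the neurofascin gene of the node of Ranvier, had 9341 and 10356 counts in the vehicle libraries and 5964 and 8211 in the cisplatin libraries (log2 fold change -0.62, SE 0.31, edgeR adjusted p = 0.567). Its CPM, like the summed Schwann cell markers, was higher in replicate 2 of both groups (replicate 1 over replicate 2 of 0.709 and 0.673). The part of Schwann cell RNA in its value was not tested. S100a10, the p11 light chain that carries Nav1.8 to the membrane, had 12086 and 11384 counts in vehicle and 19071 and 19193 in cisplatin (log2 fold change 0.56, SE 0.26, edgeR adjusted p = 0.544), so that both cisplatin libraries lay above both vehicle libraries. Fgf11, a fibroblast growth factor homologous factor, had 73 and 68 counts against 36 and 57 (log2 fold change -0.73, SE 0.42, edgeR adjusted p = 0.603). Dpysl2 (CRMP2), whose modification controls surface Nav1.7, had 8160 and 5042 counts against 5944 and 4616 (log2 fold change -0.44, SE 0.24, edgeR adjusted p = 0.585). The counts of 6 below and 1 above were not corrected for gene length. With the length trend removed, the log2 fold change was -0.22 for Nfasc, 0.27 for S100a10, -0.67 for Fgf11 and -0.43 for Dpysl2.

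The genes with the profile most like a member's, by the root-mean-square difference of centred log2 CPM over the 4 libraries, were Isl2 (0.013), Ak5 (0.019) and Fbxo44 (0.020) for Scn10a. For Scn7a they were Fndc3a (0.014), Camk2b (0.024) and Txlna (0.025). For Scn8a they were Ryr2 (0.010), Uprt (0.032) and Dpysl3 (0.045), and for Scn9a they were Acsl6 (0.0076), Atmin (0.0078) and Nxpe3 (0.018). With 4 libraries these likenesses are descriptions and carry no test. Scn7a and Scn11a were the least alike pair of members, at 0.740.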

How the data were processed

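Poly(A)-selected RNA from rat lumbar DRG was sequenced in 4 libraries, 2 per group. The deposited table gave raw read counts per gene, and FPKM values that the authors computed from them per library. The submitters' processing notes name HISAT2 2.0.5, StringTie 1.3.3b and featureCounts 1.5.0-p3. The counting options, strand included, are not given in the sources used here, so antisense and overlapping genes could not be told apart, and reads shared between similar alpha subunits may be split. Coordinates are those of the deposited table (Rnor_6.0). FPKM equalled count per kilobase over 1 constant per library, close to a TMM-scaled total. CPM were computed here from the counts with TMM.

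Non-coding genes were left out and filterByExpr kept 14719 of 22293 protein-coding genes. Cisplatin was tested against vehicle over all of these in R 4.3.3 with edgeR 4.0.16 (quasi-likelihood, TMM, treatment only, Benjamini-Hochberg adjustment). A call needed a fold change of at least 1.5 at an adjusted p under 0.05. Log2 CPM used a prior count of 2. DESeq2 1.42.0 on counts and limma 3.58.1 on log2(FPKM + 1) and log2(FPKM + 0.1) were alternatives, beside library-size scaling, other filters on low counts, a length trend (lowess, span 0.3), a replicate block and leaving out each library. Scaling to the pan-neuronal markers was added after seeing the data. The scripts were tested on simulated data. Counting error alone sets a floor of 3 counts, 0.118 to 0.152 CPM per library, and does not cover the spread between rats. Replicate numbers are the rat numbers in the sample titles. The column headers of the deposited counts number the cisplatin libraries differently from those titles. Nothing in the labels ties same-numbered libraries to each other.

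The members and lists were chosen with earlier results of these data known. Named were all 9 members, other subunits of the family (some are not reported here), up to 4 partners whose groups did not overlap, with the largest changes, and the 3 genes most like a member for at most 4 members. Of 104 listed genes, 5 symbols were not matched. The marker lists were pan-neuronal, nociceptor, large-diameter neuron, Schwann cell, satellite glia, fibroblast and meninges, endothelial, macrophage, skeletal muscle and spinal cord genes. Any 2 libraries differed by more than sampling noise.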

Additional observations from a re-analysis of the deposited data

How the results depend on the processing

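No member was called in 14 of 16 alternative fits. The exceptions were fits with the replicate block, which paired libraries by the rat number in the sample titles. These numbers name different rats, and the column headers of the deposited counts number the cisplatin libraries differently. Across 14719 genes, the difference of replicate 2 from replicate 1 in vehicle and in cisplatin had a Pearson r of 0.444 and a Spearman rho of 0.567. With the replicate block 3 members were called lower: Scn7a (log2 fold change -0.67, edgeR adjusted p = 0.00658), Scn8a (-0.79, 0.0184) and Scn2b (-0.68, 0.0473), beside 7.05% of all genes called lower and 3.36% higher. With the replicate block and the length correction together, 3 were called: Scn2b lower (-0.88, edgeR adjusted p = 0.0299), Scn10a (0.69, 0.0118) and Scn11a (0.64, 0.0129) higher, beside 4.82% lower and 1.73% higher. The block also called 1 partner, Nfasc. An unadjusted p in place of the adjusted one called 1 member. DESeq2 called 90 genes lower and 50 higher but 0 members, with an adjusted p of 0.273 for Scn7a. The median log2 fold change of the alpha subunits was 0.39 with the length correction, 0.40 with block and length correction, and -0.34 to 0.36 with single libraries left out. The beta median was -0.38 to 0.33 with single libraries left out. Beta minus alpha was -0.21 with the length correction, -0.24 with block and length correction, and -0.069 to 0.13 with libraries left out. The median relative to pan-neuronal markers was -0.32 to -0.13 with libraries left out and -0.32 to -0.15 with single markers left out. Signs changed for Scn1a (0.31 with the length correction, 0.32 with block and length correction), Scn9a (-0.11), Scn3b (-0.0089) and Scn4b (-0.20) under neuronal scaling, and Scn4b (-0.044) under library size alone. Leaving out single libraries gave -0.50 to 0.33 for Scn1a, -0.17 to 0.40 for Scn9a, -0.031 to 0.80 for Scn10a, -0.10 to 0.81 for Scn11a, -1.37 to 0.088 for Scn2b, -0.29 to 0.60 for Scn3b and -0.38 to 0.33 for Scn4b. The cause was not tested. A fit that leaves 1 library in a group assumes that it varies like the other group.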
